A study of Homo sapiens with 6 samples.

Results

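The clustered histone genes encode the linker histone H1 and the core histones H2A, H2B, H3 and H4, and were chosen as every symbol of the HIST1, HIST2, HIST3 and HIST4 clusters in the deposited expression tables. There were 73 of them among 23284 gene symbols: 6 for H1, 18 for H2A, 20 for H2B, 14 for H3 and 15 for H4. The HIST1 cluster on chromosome 6 held 56, the HIST2 and HIST3 clusters on chromosome 1 held 13 and 3, and HIST4 on chromosome 12 held 1. Expression was measured by bulk RNA sequencing in 6 libraries of HEC-1B, an established human endometrioid carcinoma cell line, in 3 groups of 2 replicates. All 3 groups are described by aldehyde dehydrogenase (ALDH), an enzyme activity used to mark stem-like tumour cells, and the series asks about the passage of cells from ALDH1A1-low to ALDH1A1-high. The high-potential accelerated group came from HEC-1B labelled high ALDH potential and ALDH-high accel, the HEC-1B accelerated group from HEC-1B labelled ALDH-high accel, and the high-to-low group from HEC-1B labelled ALDH-high to low. The labels name no further agent, allele or time. All 3 groups share 1 parental line, and whether the replicates were grown separately is not stated in the labels. The tests therefore set differences against a spread between libraries that could be technical alone.

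Core histones form the octamer around which DNA is wrapped, 2 of each kind per nucleosome, and H1 binds the DNA that enters and leaves it. The clustered genes are transcribed mainly while DNA is replicated. Most of their mRNA ends in a conserved stem-loop, bound by SLBP (the stem-loop binding protein), instead of a poly(A) tail, while variant histone genes outside the clusters give polyadenylated mRNA throughout the cell cycle. The cDNA kit named in the labels primes on poly(A), so a low value here is a low level of RNA reached by that priming and cannot be told apart from a low level of histone mRNA without a tail.

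The stem-loop letters are shown because they mark the end that lacks a tail. The conserved histone 3′ stem-loop, a pattern of 16 letters with a stem on both sides of a loop, was searched on the transcript strand of GENCODE release 29 models (GRCh38), matched by symbol for 73 of 73 members. The loop is in capitals.
HIST1H2AC: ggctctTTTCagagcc
HIST1H2BD: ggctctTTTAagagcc
HIST1H2AG: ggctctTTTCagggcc
HIST1H4E: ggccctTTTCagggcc
The letters were found in models of 32 members and of 40 of 57133 symbols in all (0.07%). They were present for 10 of the 23 members defined as detected below, 10 of 17 low members and 12 of 33 members at 0, and many models without them end at the coding end. In 9 of the 10 detected members that hold the letters, a model ran on for at least 100 bases beyond them, against 5 of 10 low members and 9 of 12 members at 0.

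A stretch rich in A could also be primed, so the 20-base window with the most A, with its longest run of A in capitals, is shown for members that the results turn on.
HIST1H4C: aaaaaacaaaaacAAAAAAA
HIST1H1C: ctaagAAAAcaccgaagaaa
HIST1H2BK: cagaagaaggacggcaagAA
HIST1H4E: agcacgccAAAcgcaagaca
The window of HIST1H4C held 18 A, and it was the last 20 bases of a 435-base model. As many or more A were found for 2 of 73 members and for 9.96% of 19669 protein-coding genes. The windows of HIST1H1C, HIST1H2BK and HIST1H4E held 12, 10 and 9 A, beside a median of 11 over the members. HIST1H2BG, whose window held 20 A, was not among the detected members. The part of these letters in the measured levels was not tested.

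Values are FPKM (fragments per transcript length in kilobases, scaled to sequencing depth). Relative sequencing depth, read from the steps between low values, ran from 0.807 to 1.07 with high-potential accelerated replicate 1 at 1, and 11392 to 11726 genes reached 1 FPKM. Of 11 markers of simple epithelium, 6 were detected, with KRT18 up to 464 FPKM, whereas leukocyte, fibroblast and endothelial markers reached no more than 1.79, 0.414 and 0.92 FPKM. ALDH1A1, the gene the study follows, stood at 352.5 and 303.6 FPKM in both libraries of high-potential accelerated, at 26.7 and 316.9 in the HEC-1B accelerated replicates and at 28.4 and 9.44 in the high-to-low replicates. By ALDH1A1, the library labelled HEC-1B accelerated replicate 1 thus lay beside high-to-low replicate 1 and far from the other accelerated libraries. Group differences that use it are given with and without it below.

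A member was called detected when it had at least 1 FPKM in at least 2 libraries, which 23 of 73 had. Of the other 50, 33 were at 0 in all 6 libraries and 17 had some value above 0, 6 of these in 1 library only. Detection differed in number by class: 2 of 6 H1 genes, 8 of 18 H2A, 7 of 20 H2B, 3 of 14 H3 and 3 of 15 H4. All 6 libraries reached 1 FPKM for 13 members, namely 2 of H1, 5 of H2A, 4 of H2B, 2 of H4 and 0 of H3. By cluster, 20 of 56 HIST1, 2 of 13 HIST2, 1 of 3 HIST3 and 0 of 1 HIST4 genes were detected. Of 10 clustered genes recalled as giving polyadenylated transcripts, 8 were detected, and HIST2H2BF and HIST4H4 were at 0 in every library. A list from memory is not complete, so these 8 describe the members and support nothing.

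Near the threshold, the second highest FPKM was 1.01 for HIST1H3D, 1.16 for HIST1H2AK and 1.30 for HIST1H3A just inside, and 0.843 for HIST1H2AE, 0.797 for HIST3H2BB and 0.772 for HIST1H2BO just outside. The highest single value among the 50 undetected members was the 2.06 FPKM of HIST1H4A, an H4 gene listed in high-to-low replicate 1 alone. For 28 of the 34 members above 0 in at least 2 libraries, the 6 values were whole multiples of 1 fragment (greatest distance from a whole number 0.00558), and the 8 undetected among them had at most 7 fragments in any library. These numbers are the smallest whole-number solution. The intervals given on fragments cover counting error only, since amplified fragments are not independent molecules.

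Sequence shared with copies or with overlapping models makes some values uncertain. At least 90% of the 50-base stretches of a member's models also occurred in another gene for 9 members, 2 detected, 1 low and 6 at 0. The 6 at 0 were HIST2H2AA3, HIST2H2AA4, HIST2H3A, HIST2H3C, HIST2H4A and HIST2H4B, the paired copies of the HIST2 cluster. A value of 0 there cannot be told apart from fragments that could be placed in more than 1 copy. The 2 detected members were HIST1H2AD (98.0% shared) and HIST1H3D (100%), both with AL031777.3, a transcript that overlaps them. For HIST1H2AM 86.3% was shared with HIST1H3J, an H3 gene, and for HIST1H2BK 74.1% in all, mainly with H2BFS. Whether the models of HIST1H2AM and HIST1H3J overlap was not tested. HIST1H4C shared none, and neither did 18 of the 33 members at 0.

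HIST1H4C, which encodes the core histone H4, stood far above the other members. Its levels were 972 and 425 FPKM in high-potential accelerated replicates 1 and 2, 850 and 155 in HEC-1B accelerated replicates 1 and 2, and 455 and 568 in high-to-low replicates 1 and 2. The lowest and the second highest library thus carried the same label, and the values of the accelerated groups spanned those of the high-to-low group. This 1 gene made up 68.6 to 91.3% of the summed FPKM of all 73 members, the lowest share being that of HEC-1B accelerated replicate 2. The sum over members was 1064, 511, 982, 226, 561 and 666 FPKM in the same order of libraries. Without HIST1H4C the other 72 summed to 92.0, 86.2, 131.8, 71.0, 106.1 and 98.4 FPKM, so HEC-1B accelerated replicate 1 was highest and its partner lowest.

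**Figure D1:**
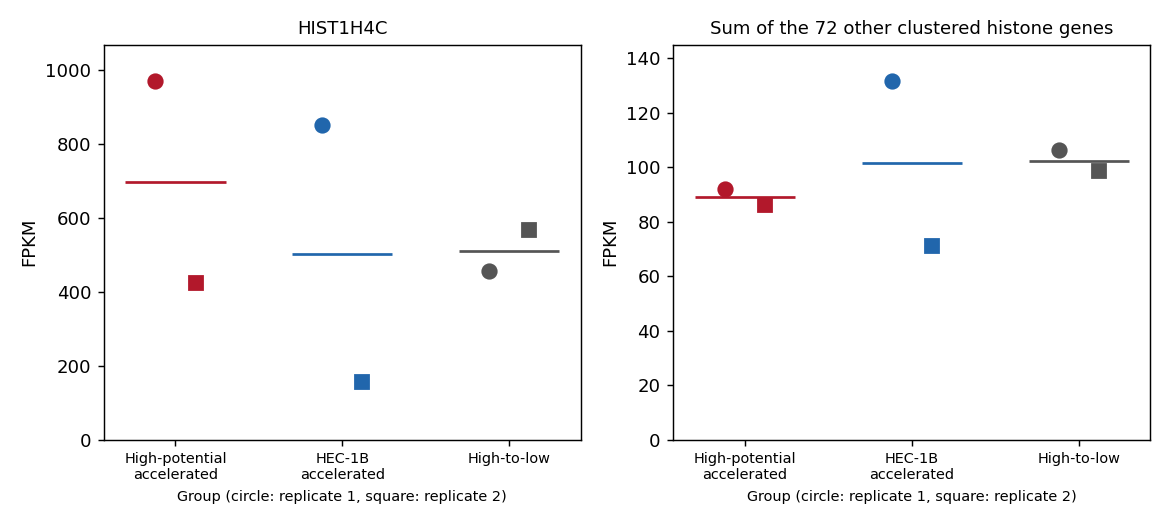
HIST1H4C level (FPKM) and the summed FPKM of the other 72 clustered histone genes in each of the 6 libraries, by group. HIST1H4C lies at 972 and 155 FPKM in its highest and lowest library, and HEC-1B accelerated replicate 2 is lowest in both measures.

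HIST1H4C made up nearly all of the H4 sum, and HIST1H1C and HIST1H2BK were the largest members of the H1 and H2B sums described next. Summed H1 levels were 14.5 and 23.4 FPKM in high-potential accelerated replicates, 28.6 and 19.8 in the HEC-1B accelerated replicates and 25.3 and 22.2 in the high-to-low replicates. H2A genes summed to 33.7 and 27.2, 45.4 and 20.8, and 36.4 and 41.1 FPKM in that order. H2B genes summed to 30.6 and 21.5, 45.0 and 22.1, and 33.6 and 27.7. In each of H1, H2A and H2B, HEC-1B accelerated replicate 1 had the highest sum of all libraries and was above replicate 2. H3 genes summed to 2.42 and 6.57, 6.18 and 2.41, and 2.71 and 2.75 FPKM. H4 genes other than HIST1H4C summed to 10.9 and 7.52, 6.61 and 5.91, and 8.17 and 4.63.

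Linker histones were represented by HIST1H1C and HIST1H1E, which bind DNA between nucleosomes. HIST1H1C was at 8.33 and 12.5 FPKM in high-potential accelerated replicates, 18.1 and 9.92 in the HEC-1B accelerated replicates and 18.4 and 14.3 in the high-to-low replicates. Both high-potential libraries lay below both high-to-low libraries. HIST1H1E was at 5.99 and 10.9, 10.5 and 9.87, and 6.90 and 7.92 FPKM, and here both HEC-1B accelerated libraries lay above both high-to-low libraries. Of the other 4 H1 genes, 3 were at 0 throughout and HIST1H1D had 0.16 FPKM in 1 library.

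Among the H2A genes, whose product pairs with H2B, HIST2H2AC, HIST1H2AD and HIST1H2AC had the highest means. HIST2H2AC was at 8.74 and 7.38 FPKM in high-potential accelerated, 7.68 and 5.24 in HEC-1B accelerated and 7.40 and 10.2 in high-to-low replicates, and 30.5% of its model is shared with HIST2H2AA3. HIST1H2AC was at 8.34 and 5.002, 7.23 and 3.85, and 7.27 and 4.31 FPKM, lower in replicate 2 in every group. HIST1H2AD, which overlaps AL031777.3, was at 4.33 and 2.29, 9.55 and 0.665, and 8.39 and 11.5 FPKM. Its HEC-1B accelerated replicates thus had the second highest and the lowest value of the 6. HIST1H2AM, also uncertain because of HIST1H3J, was at 2.61 and 3.23, 7.01 and 3.94, and 3.34 and 3.83 FPKM, its highest values being in HEC-1B accelerated. The other detected H2A genes, HIST1H2AG, HIST1H2AH, HIST1H2AK and HIST3H2A, ranged from 0.361 to 5.09 FPKM over the libraries.

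HIST1H2BK was the highest H2B gene and, after HIST1H4C, the highest member. Its levels were 21.6 and 11.3 FPKM in high-potential accelerated replicates, 21.5 and 12.99 in the HEC-1B accelerated replicates and 19.7 and 15.6 in the high-to-low replicates. Replicate 1 was higher in all 3 groups, and the groups overlapped. HIST2H2BE was at 2.48 and 2.63, 8.29 and 2.93, and 4.62 and 1.88 FPKM, with the highest value in HEC-1B accelerated replicate 1. HIST1H2BC was at 1.19 and 2.45, 2.55 and 1.30, and 2.58 and 2.96 FPKM, and the high-to-low libraries were above the other 4. These values rest on 3, 5, 6, 3, 7 and 7 fragments, so the libraries were set apart by 7 fragments against 6. HIST1H2BD was at 1.93 and 1.20, 3.50 and 1.43, and 1.27 and 1.03 FPKM. The remaining detected H2B genes, HIST1H2BF, HIST1H2BJ and HIST1H2BN, ranged from 0.333 to 4.87 FPKM.

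H3 genes, whose product forms the core tetramer with H4, were close to the threshold. HIST1H3B was at 1.38 and 3.42 FPKM in high-potential accelerated replicates, 1.85 and 1.14 in the HEC-1B accelerated replicates and 0.321 and 1.47 in the high-to-low replicates. These values rest on 4, 8, 5, 3, 1 and 4 fragments, so counting error alone is wide: the exact 95% Poisson interval of 1 fragment runs from 0.0253 to 5.57. HIST1H3A was at 0.697 and 1.30, 1.87 and 0.766, and 0.973 and 0 FPKM, and HIST1H3D at 0 and 1.01, 1.70 and 0.507, and 0.777 and 0.492. No H3 gene separated any pair of groups.

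The other detected H4 genes were HIST1H4E and HIST1H4H. HIST1H4E was at 7.52 and 5.33 FPKM in high-potential accelerated, 4.04 and 5.91 in HEC-1B accelerated and 5.004 and 2.87 in high-to-low replicates, so the high-potential libraries lay above the high-to-low libraries. These values rest on 14, 8, 7, 10, 10 and 5 fragments. HIST1H4H was at 2.73 and 0.678, 0.588 and 0, and 0 and 1.75 FPKM, on 5, 1, 1, 0, 0 and 3 fragments.

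**Figure D2:**
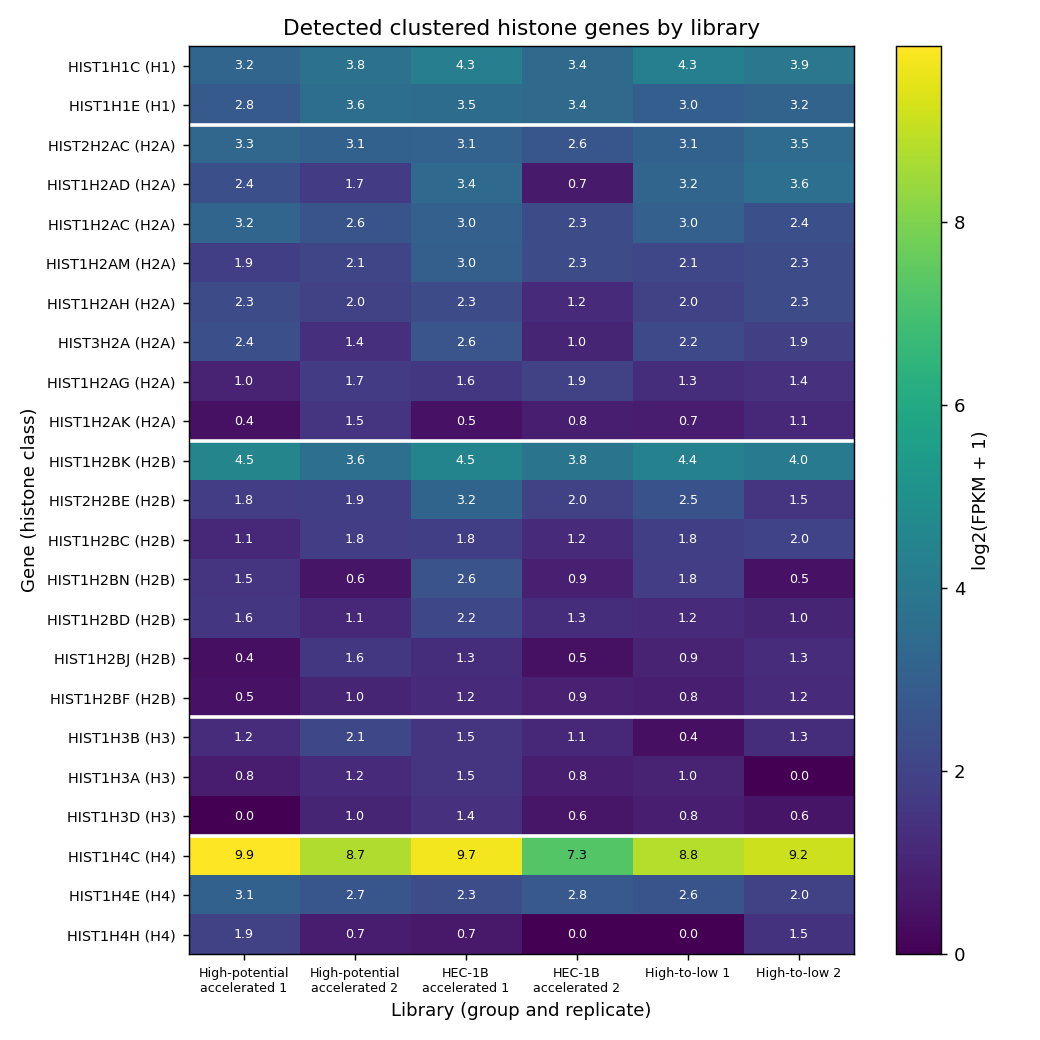
Level of each of the 23 detected clustered histone genes in the 6 libraries, as log2(FPKM + 1), ordered by class. HIST1H4C exceeds every other member in each library, and HEC-1B accelerated replicate 1 and replicate 2 differ in most rows.

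Replicates of the HEC-1B accelerated group differed mostly in 1 direction. On the log2(FPKM + 1) scale, replicate 2 was below replicate 1 for 20 of 23 detected members in HEC-1B accelerated, with a median difference of -0.70, beside 49.8% of all genes and a median of 0. In the high-potential accelerated group 11 of 23 were lower in replicate 2 (median 0.06), and in the high-to-low group 10 of 23 (median 0.15). Regardless of direction, the median absolute difference of the members was 0.702 in HEC-1B accelerated, 0.698 in high-potential accelerated and 0.345 in high-to-low, beside 0.312, 0.268 and 0.277 over all genes. For the 20 detected members with recovered fragments, exact 95% intervals for counting error were set on the ratio between replicates at their relative depths. In HEC-1B accelerated the interval lay below 1 for 6 of 20 (replicate 2 to replicate 1) and above 1 for 0. In high-potential accelerated it lay below 1 for 2 and above for 2, and in high-to-low below for 1 and above for 1. Fragments were recovered for members only, so no share over all genes stands beside these counts. They are therefore no result about clustered histone genes as a set.

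The gene with the largest numbers showed this most clearly. HIST1H4C had 1946 and 686 fragments in the high-potential accelerated replicates, 1584 and 282 in the HEC-1B accelerated replicates and 978 and 1063 in the high-to-low replicates. Replicate 1 was 5.49 times replicate 2 in HEC-1B accelerated (interval 4.84 to 6.26) and 2.29 times in high-potential accelerated (2.10 to 2.50). In high-to-low, replicate 2 was 1.25 times replicate 1 (1.14 to 1.36). The other 5 members lower in HEC-1B accelerated replicate 2 beyond counting error were HIST2H2BE (2.83 times, 2.10 to 3.88), HIST1H1C (1.82 times), HIST1H2BK (1.66 times), HIST3H2A (4.89 times, 1.38 to 26.3) and HIST1H2BN (5.87 times, 1.31 to 54.0). The last pair rest on at most 15 fragments in a library. HIST2H2BE was also lower in high-to-low replicate 2 beyond counting error (2.46 times, 1.69 to 3.64). HIST1H2BN was higher in replicate 1 of high-potential accelerated (4.03 times) and high-to-low (6.10 times), and HIST3H2A likewise (2.82 and 1.31 times). The intervals of these HIST1H2BN and HIST3H2A ratios included 1. In high-potential accelerated, HIST1H2BK fell with HIST1H4C from replicate 1 to replicate 2, while the linker genes HIST1H1C and HIST1H1E were higher there, 1.498 and 1.83 times. The members therefore did not share 1 direction in that group.

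**Figure D3:**
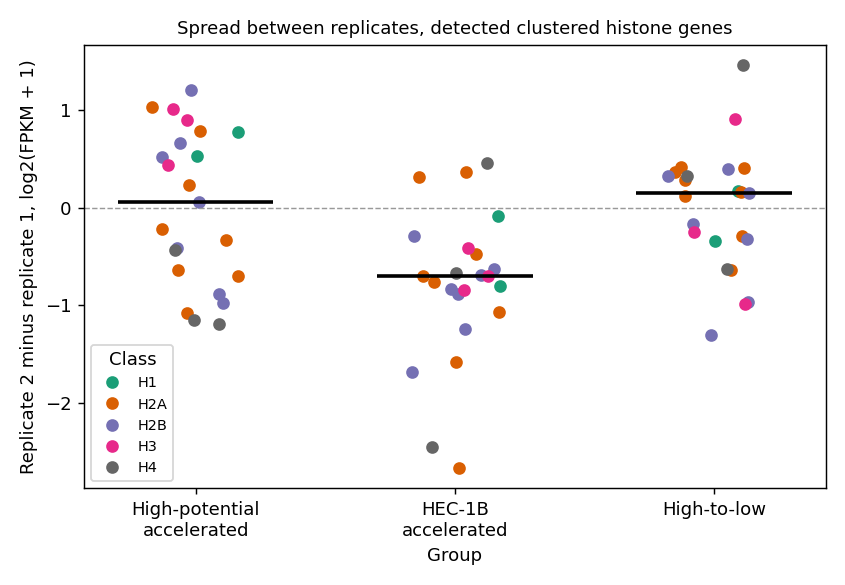
Difference between replicate 2 and replicate 1 within each group, in log2(FPKM + 1), for the 23 detected clustered histone genes. In HEC-1B accelerated 20 of 23 points lie below 0, in the other groups 11 and 10.

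ALDH1A1 and the cell cycle lists also differed between replicates. In HEC-1B accelerated, ALDH1A1 was 26.7 and 316.9 FPKM in replicates 1 and 2, so the replicate low in clustered histones was the one high in ALDH1A1. The mean log2 level of 32 S phase genes was 5.55 and 5.95 there, and that of 20 mitosis genes 6.05 and 6.97, both higher in replicate 2. In high-potential accelerated the S phase mean was 5.37 and 5.77 and in high-to-low 5.75 and 6.12, again higher in replicate 2, while the mean over the detected clustered genes was 2.23 and 2.24, and 2.26 and 2.24. In HEC-1B accelerated that mean was 2.66 and 1.87. The number in each library's description starts differently in replicates 1 and 2 of both accelerated groups, but alike in those of high-to-low. The median absolute member difference was 0.698 in high-potential accelerated, 0.702 in HEC-1B accelerated and 0.345 in high-to-low. Over all genes it was 0.268, 0.312 and 0.277. The part of ALDH1A1, cell cycle genes, depth or the description number in the replicate difference was not tested. Fewer cells in S phase and less histone RNA per cell cannot be told apart in bulk libraries.

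**Figure D4:**
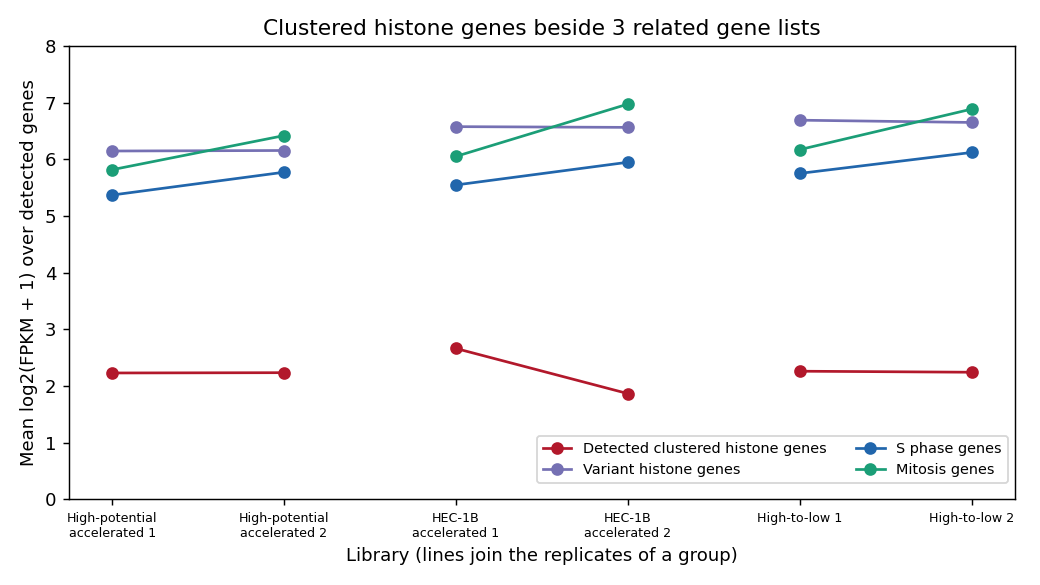
Mean log2(FPKM + 1) level per library of the detected clustered histone genes and of the other gene lists. The S phase and mitosis means are higher in replicate 2 of all 3 groups, and the clustered genes are lower in replicate 2 of HEC-1B accelerated.

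Between groups, no clustered histone gene passed the test in any of 4 comparisons. Differences are given as log2 of (FPKM + 1), which understates those of low genes, from 1 limma fit over 12135 genes, with calls at a Benjamini-Hochberg adjusted p under 0.05. For the mean of both accelerated groups against high-to-low, 0 of 23 were called, against a background of 0.0659% of all genes. For high-potential accelerated against high-to-low it was 0 of 23 against 0.799%, for HEC-1B accelerated against high-to-low 0 of 23 against 0.0165%, and for high-potential against HEC-1B accelerated 0 of 23 against 0.494%. At that size of background, 0 of 23 is no result about the members. At an unadjusted limma p under 0.05 the counts were again 0 of 23 in all 4 comparisons, where 9.25, 18.4, 0.972 and 14.3% of all genes passed.

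Groups whose libraries did not overlap were also few. In the mean comparison 1 of 23 members did not overlap (4.35%, background 13%), 0 higher and 1 lower, where 6.3 and 6.73% of all genes were. For high-potential accelerated against high-to-low it was 5 of 23 (21.7%, background 51.1%), 1 higher and 4 lower beside 24.7 and 26.4% of all genes. For HEC-1B accelerated against high-to-low it was also 5 of 23 (21.7%, background 24.1%), 4 higher and 1 lower beside 11.4 and 12.7%. Between the accelerated groups it was 3 of 23 (13%, background 43.4%), 1 higher and 2 lower beside 21.1 and 22.3%. The members' shares were below the background in each comparison, and whether they differ from it was not tested. The median log2 difference over the members was 0.05, -0.10, -0.06 and -0.06 in the 4 comparisons, beside -0.02, -0.01, -0.02 and 0.00 over all genes tested, with 12, 10, 11 and 10 of 23 members positive. Without HEC-1B accelerated replicate 1 the member median was -0.16 in the mean comparison, -0.27 for HEC-1B accelerated against high-to-low and 0.17 between the accelerated groups, and without replicate 2 it was 0.24, 0.28 and -0.40. Without replicate 1, HEC-1B accelerated is left with 1 library, so no calls are given for these 3 comparisons. Members without overlap were then 4 of 23 (17.4%, background 29.4%), 15 of 23 (65.2%, background 66.5%) and 11 of 23 (47.8%, background 72.3%). Without replicate 2 instead they were 1 of 23 (4.35%, background 21.9%), 17 of 23 (73.9%, background 63.6%) and 13 of 23 (56.5%, background 75.9%). For HEC-1B accelerated against high-to-low the share was thus near the background or above it, depending on the replicate kept. The sign of the median followed which of these replicates was kept. The comparisons share libraries, so these values are not independent of one another.

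**Figure D5:**
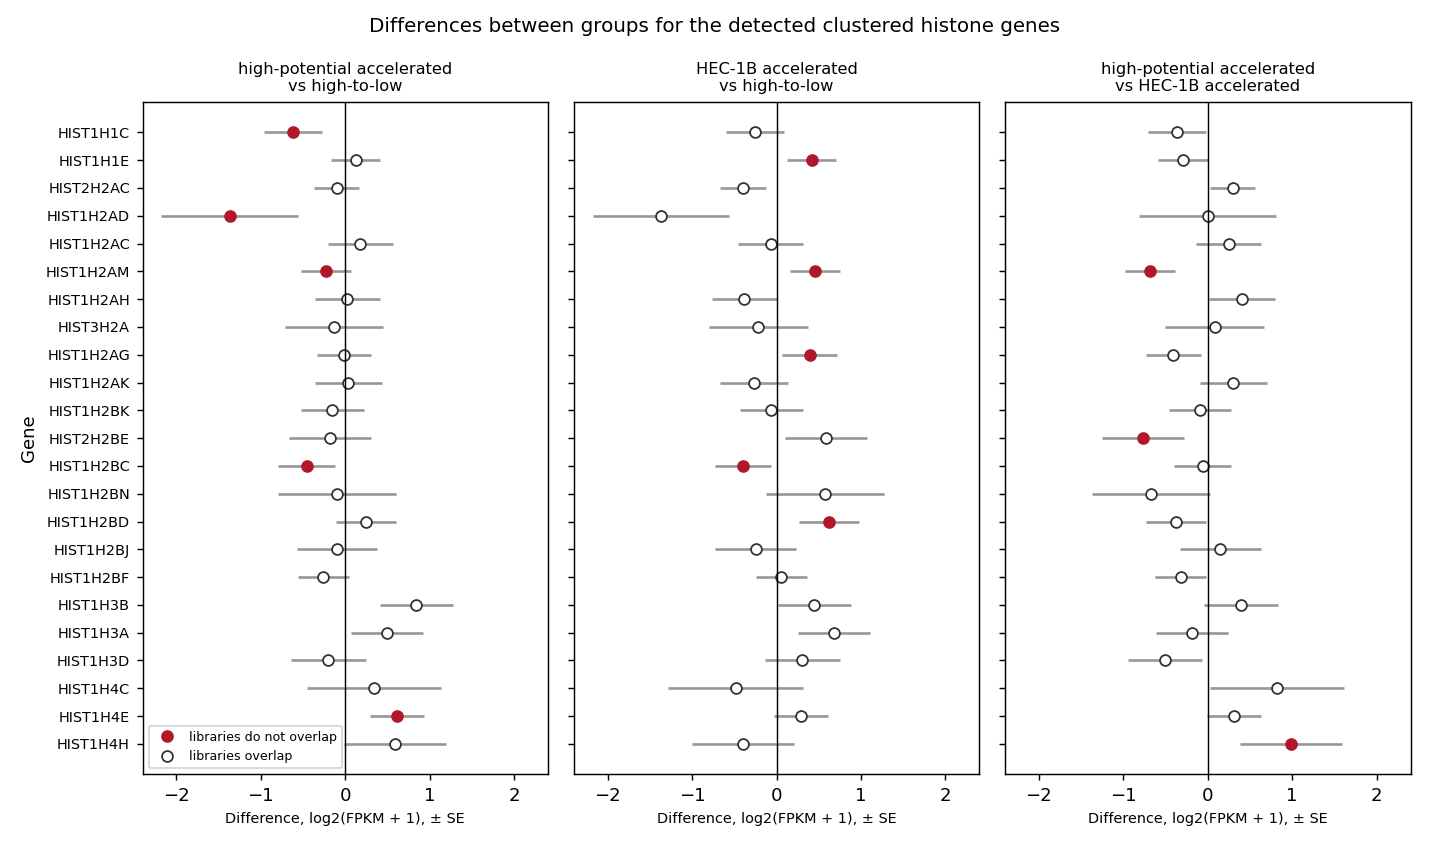
Log2 difference with its standard error for the detected clustered histone genes in the group comparisons, from limma on log2(FPKM + 1). Points lie on both sides of 0 in each comparison, and 0 of 23 passed an adjusted p of 0.05.

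In high-potential accelerated against high-to-low, HIST1H4E was the 1 member wholly above, by 0.61 (SE 0.319, limma adjusted p = 0.376), with means of 6.43 ± 1.55 and 3.94 ± 1.51 FPKM (SD, n = 2). High-potential replicate 2 held 8 fragments of it and high-to-low replicate 1 held 10. Only their relative depths, 0.807 and 1.07, put the high-potential library above. The members wholly below were HIST1H2AD by -1.37 (SE 0.810, limma adjusted p = 0.427), HIST1H1C by -0.62 (SE 0.340, limma adjusted p = 0.393), HIST1H2BC by -0.45 and HIST1H2AM by -0.23. For HIST1H1C the means were 10.4 ± 2.93 and 16.4 ± 2.92 FPKM (SD, n = 2). HIST1H3B had the greatest positive difference of all members, 0.84 (SE 0.437, limma adjusted p = 0.369), but its libraries overlapped. HIST1H4C differed by 0.34 with an SE of 0.797 (limma adjusted p = 0.863), at 698 ± 387 and 511 ± 79.8 FPKM (SD, n = 2).

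In HEC-1B accelerated against high-to-low, HIST1H2BD, HIST1H2AM, HIST1H1E and HIST1H2AG were wholly above, by 0.63, 0.46, 0.41 and 0.39, and HIST1H2BC wholly below, by -0.40. Their limma adjusted p was 1 in each case. HIST1H1E rested on 62 and 57 fragments against 47 and 47, and HIST1H2AG on 6 and 8 against 5 and 5. HIST1H2AM had 20 fragments in HEC-1B accelerated replicate 1, and 11 in replicate 2 and in each high-to-low library. Only relative depth, 0.909 against 1.07 and 0.935, set that replicate 2 apart from the high-to-low libraries. Without replicate 1, the library low in ALDH1A1, HIST1H2BD stood at 0.18, HIST1H2AM at 0.11, HIST1H1E at 0.37, HIST1H2AG at 0.55 and HIST1H2BC at -0.71. Without replicate 2 they stood at 1.07, 0.81, 0.45, 0.24 and -0.08, so HIST1H2BD and HIST1H2AM rested mainly on replicate 1 and HIST1H2BC mainly on replicate 2. HIST1H4C differed by -0.48 (SE 0.797), at 503 ± 492 FPKM (SD, n = 2) in HEC-1B accelerated. Without HEC-1B accelerated replicate 2 that difference was 0.74, and without replicate 1 it was -1.71, so its direction rested on 1 library.

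Between the accelerated groups, HIST1H4H was wholly above in high-potential accelerated by 0.99 (SE 0.603, limma adjusted p = 0.530), on 5 and 1 against 1 and 0 fragments. High-potential replicate 2 (0.678 FPKM) and HEC-1B accelerated replicate 1 (0.588 FPKM) each held 1 fragment. Only their relative depths, 0.807 and 0.930, set these libraries apart. HIST2H2BE was wholly below by -0.77 (SE 0.489, limma adjusted p = 0.553) and HIST1H2AM by -0.69 (SE 0.293, limma adjusted p = 0.362). Without HEC-1B accelerated replicate 1 these differences were 1.32 for HIST1H4H, -0.14 for HIST2H2BE and -0.34 for HIST1H2AM, and without its replicate 2 they were 0.66, -1.39 and -1.03. HIST1H4C differed by 0.82 (SE 0.797, limma adjusted p = 0.712), by 2.05 without HEC-1B accelerated replicate 1 and by -0.40 without its replicate 2. For the mean of both accelerated groups against high-to-low, HIST1H2BC was the 1 member without overlap, at -0.43 (SE 0.291, limma adjusted p = 0.701). It had at most 7 fragments in a library. HIST1H2AD had the most negative difference, -1.37 (SE 0.701, limma adjusted p = 0.602), and HIST1H4C stood at -0.07. Without HEC-1B accelerated replicate 1 these were -0.58 for HIST1H2BC, -2.04 for HIST1H2AD and -0.69 for HIST1H4C, and without its replicate 2 they were -0.27, -0.70 and 0.54. With the replicate left out, HIST1H4C thus turned in direction, and HIST1H2AD stayed negative but ran from -2.04 to -0.70.

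Genes that act on clustered histone mRNA were detected in full. Of 26 genes for its transcription and 3′-end processing, all 26 were detected, and 0 were called in any comparison by limma, with 0, 3, 0 and 1 at an unadjusted p under 0.05. Over all genes, 9.25, 18.4, 0.972 and 14.3% had an unadjusted limma p under 0.05, the background for this list and those below. Their median differences were -0.03, -0.03, -0.05 and 0.04. SLBP, which binds the stem-loop printed above, was at 124.3 and 151.8 FPKM in high-potential accelerated, 117.2 and 126.8 in HEC-1B accelerated and 130.6 and 159.2 in high-to-low replicates. CDK2, a kinase that activates the histone gene activator NPAT, was at 44.2 and 56.0, 59.5 and 77.8, and 66.1 and 85.9 FPKM, with a difference of -0.59 between high-potential accelerated and high-to-low (SE 0.241, limma adjusted p = 0.268). Of 24 histone chaperones, which carry histones to and from DNA, 0 were called, with 2, 3, 0 and 2 at an unadjusted p under 0.05 and medians of -0.04, 0.01, -0.03 and 0.04.

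Of the variant histone genes outside the clusters, some were at 0 or near it and others far above most clustered members. Of 19 listed in the tables, 10 were detected and 0 were called by limma, with 1, 2, 0 and 3 at an unadjusted p under 0.05. Their median difference was -0.31 in the mean comparison, where 10 of 10 were negative, and -0.35, -0.17 and -0.19 in the others. Of all 12135 genes tested, 6414 were negative in the mean comparison. H2AFZ, a variant H2A found at promoters, was at 606 and 675 FPKM in high-potential accelerated, 875 and 1107 in HEC-1B accelerated and 1014 and 1209 in high-to-low replicates, so the high-potential libraries were wholly below the rest. Its difference from high-to-low was -0.79 (SE 0.244, limma adjusted p = 0.172). H1FX, a linker variant, was at 26.7 and 20.3, 49.8 and 37.5, and 57.8 and 45.6 FPKM, a difference of -1.11 from high-to-low (SE 0.245, limma adjusted p = 0.0982). H3F3B, which encodes the replacement histone H3.3, overlapped between groups at 498 to 740 FPKM.

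S phase genes, which share their time of expression with the clustered genes, had a median difference of -0.23, -0.33, -0.22 and -0.15, with 28, 27, 30 and 22 of 32 negative. Of all 12135 genes tested, 6414, 6161, 6420 and 6016 were negative. None of the 32 S phase genes was called by limma. At an unadjusted limma p under 0.05 there were 5, 6, 0 and 7, beside 9.25, 18.4, 0.972 and 14.3% of all genes. The 20 mitosis genes had medians of -0.23, -0.38, 0.00 and -0.33, with 0 called by limma and 0, 1, 0 and 0 at an unadjusted p under 0.05. Beside them the detected clustered genes had 11, 13, 12 and 13 of 23 negative. Whether the lists differ from each other was not tested.

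The list medians also depended on which HEC-1B accelerated replicate was kept. The 3 comparisons that use this group are given in the order mean comparison, HEC-1B accelerated against high-to-low and between the accelerated groups. Without replicate 1, HEC-1B accelerated is left with 1 library, so medians and directions alone are given. The S phase medians were then -0.17, 0.03 and -0.33, with 25, 15 and 27 of 32 negative. The mitosis medians were -0.03, 0.43 and -0.84, with 12, 0 and 20 of 20 negative. The variant histone medians were -0.35, -0.08 and -0.58, with 8, 6 and 7 of 10 negative. The chaperone medians were 0.04, 0.08 and -0.27, and those of the 3′-end processing and transcription genes 0.02, 0.07 and -0.04. Between HEC-1B accelerated and high-to-low, the S phase, chaperone and processing medians thus turned from negative to positive. The mitosis median moved from -0.002, with 10 of 20 negative, to 0.43, with 0 of 20 negative. Without replicate 2 instead, the medians in that comparison were -0.38 for S phase, -0.51 for mitosis and -0.18 for variants. Those for chaperones and processing were then -0.24 and -0.21.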

How the data were processed

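The authors deposited 1 table of FPKM values per library, 1 value per gene symbol. The submitters' processing notes name TopHat2 2.0.13, Cuffnorm 2.2.1 and the hg19 build, and per the labels' protocols cDNA was made with SMART-Seq v4 from total RNA. The sources used here do not give the annotation, the scaling or the handling of fragments that match several genes. Reads of overlapping or antisense genes cannot be told apart, as this kit keeps no strand.

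No count model was run on FPKM. The 12135 genes that reached 1 FPKM in 2 or more libraries were put on the log2(FPKM + 1) scale. They were fitted in R 4.3.3 using limma 3.58.1, all 6 libraries and a trended variance, with 3 residual degrees of freedom. P-values were two-sided and Benjamini-Hochberg adjusted over all genes tested. This step was tested on simulated data. Whole fragments were recovered, within 0.02, from the steps between values, for members only. Over 4364 low genes, 52.2% of genes came out whole, so fragments are not claimed for the table as a whole.

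Named were the 3 detected members of highest mean in each class, and in each comparison up to 3 members per direction whose libraries did not overlap. The members, lists and rules were chosen with earlier results of these data known. HIST1H2AG, HIST1H2AM (high-potential accelerated against high-to-low), the members told apart by counting error and the list genes SLBP, CDK2, H2AFZ, H1FX and H3F3B were named after their values were seen. Transcript models (GENCODE release 29) and promoters (RefSeq) are of GRCh38, so no coordinates are printed. Alternatives changed the pseudocount, filter, scaling, variance trend, replicate and description-number terms and left out each library.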

Additional observations from a re-analysis of the deposited data

How the results depend on the processing

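No clustered histone gene was called under any alternative run that kept all 6 libraries. With 2 libraries a group, this says little about small differences. The median over the members stayed within 1 SD of the library medians (0.4635) except between the accelerated groups among libraries whose description number starts with 17, where it was -0.64, an alternative added after the data were seen. That setting leaves 1 library in each accelerated group. Leaving out each library in turn, the median ran from -0.16 to 0.24 (mean of both accelerated groups), -0.11 to 0.01 (high-potential against high-to-low), -0.27 to 0.28 (HEC-1B accelerated against high-to-low) and -0.40 to 0.17 (between the accelerated groups), so its sign was not stable. The lone library of a group was then assumed to vary like the others. HIST1H4C changed sign in the mean comparison from -0.07 to 0.84 with a term for the description number, and in HEC-1B accelerated against high-to-low from -0.48 to 0.43. Differences between replicates 2 and 1 correlated across groups by 0.187, 0.158 and 0.281 over all genes. Over the 23 members the values were 0.558, 0.119 and 0.104. The order is high-potential with HEC-1B accelerated, high-potential accelerated with high-to-low, and HEC-1B accelerated with high-to-low. The member value was greatest between the accelerated groups, where the description number also changes with the replicate, and its part was not tested. No label makes the replicates pairs. With a replicate block 0 members were called, and over all genes 17, 944, 2 and 546 were, against 8, 97, 2 and 60 without it. Low fragment numbers limit HIST1H4H, HIST1H2AK, HIST1H2BF, HIST1H3A and HIST1H2BJ, which had 10 to 18 fragments over the 6 libraries together. HIST1H2BC, the only member without overlap in the mean comparison, had 31.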

Other observations

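Promoter letters followed the class of the histone. RefSeq windows from 250 bases before to 50 after the start (GRCh38) were found for 65 of 73 members, and letters were searched on both strands. The octamer ATTTGCAT was present in 14 of 18 H2B windows (77.8%) and 11 of 16 H2A windows (68.8%), in 0 of 6 H1, 0 of 12 H3 and 0 of 13 H4 windows, and in 1.83% of all 27305 promoters. CCAAT was present in every H1, H2A, H2B and H3 window and in 3 of 13 H4 windows, beside 35.4% of all promoters. AAACACA was present in 6 of 6 H1 windows, beside 5.79%, and TATAAA in 43 of 65 (66.2%), beside 12.3%. By detection, the octamer was present in 10 of 21 detected members (47.6%) and 15 of 44 others (34.1%), and within H2B in 5 of 7 and 9 of 11. A match is a description of letters in this window.

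ACTB was at 3652 to 6181 FPKM. H3F3A, which encodes the same H3.3 protein as H3F3B, was listed at 0.00204 to 6.06 FPKM, beside 498 to 740 for H3F3B. EEF1A1, a gene with many pseudogene copies, was at 41.7 to 74.3 FPKM. The part of fragments that match several copies in these levels was not tested.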
